A study of Mus musculus with 6 samples.

Results

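The small-subunit mitochondrial ribosomal protein genes were taken by symbol, as every row of the hematopoietic stem cell (HSC) count table named Mrps with a number and, at most, one of the letters a to c. There were 29 such genes among 34573 in the table, and all 29 had enough reads for a test. HSCs, sorted as Lin-CD48-CD150+ cells by the labels and defined in the study as CD48-CD150+ cells within the Lin-Sca-1+c-Kit+ (LSK) cells of mouse bone marrow, came from Rpl22-/- mice, which lack the cytosolic ribosomal protein Rpl22 in every cell from the germline on, and from Rpl22+/+ mice. Both genotypes were young adults on the C57BL/6 background, and the labels name no treatment. Polyadenylated RNA from 3 samples of each genotype was sequenced with a TruSeq kit, 1 library per sample, and how many animals gave cells to a sample is not stated in the sources used here, so p-values measure the spread between these samples. The comparison asks which of these genes differ in their mRNA between HSCs with and without Rpl22.

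Mitochondria keep their own ribosome, which translates the few proteins encoded in mitochondrial DNA, all of which belong to the respiratory chain or the ATP synthase. Its proteins are encoded in the nucleus, made in the cytosol and imported, and the small subunit, which holds the mRNA and decodes it, is built from proteins with counterparts in the bacterial ribosome and from others found in mitochondria only. HSCs are known for low mitochondrial activity and a strong reliance on glycolysis. The Mrps symbols do not map exactly onto that subunit. Of the 29, 16 encode small-subunit proteins with a bacterial counterpart and 10 encode mitochondrion-specific small-subunit proteins, while Mrps18a and Mrps30 encode proteins that sit in the large subunit, and Mrps36 encodes a component of the 2-oxoglutarate dehydrogenase complex of the citric acid cycle. In addition, 4 small-subunit proteins carry other names, Dap3, Chchd1, Ptcd3 and Aurkaip1.

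The letters of ETS sites were commoner in the promoters of these genes than in promoters at large, as they were in those of large-subunit (Mrpl) genes. Promoter windows of RefSeq on GRCm38.p6, from 250 bases before to 50 bases after an annotated start, were at hand for 26 of the 29 genes, in 27 windows. CCGGAAG, the core letters bound by ETS family factors such as GABPA, occurred on either strand in 11 of the 27 windows (40.7%), against 17.2% of the 12889 windows of genes tested and 8.86% of all 32851 windows. Windows of Mrpl genes held these letters in 13 of 46 (28.3%). In 3 windows, those of Mrps18a, Mrps21 and Mrps23, the match was followed at once by CGGAAG, an arrangement looked for after it was seen in these sequences and present in 0.365% of the windows of genes tested. Of the 46 Mrpl windows, 1 held it (2.17%). GATGGCG, core letters of YY1 sites, occurred in 4 of the 27 windows (14.8%, against 6.21% for genes tested), and GCATGCG, core letters of NRF1 sites, in 1 (3.70%, against 6.19%). In Mrpl windows these shares were 8.70% and 15.2%. GCATGCG nearly reads the same on both strands, so 1 place in Mrps18b matched on both. The following 25-base stretches show the ETS letters in capitals, each on the strand that reads CCGGAAG, for the 3 genes with the repeated letters and for genes with low and high log2 fold changes.
Mrps23 (chr11:88204394-88204418, minus strand): gggctgttaCCGGAAGcggaagcgg
Mrps21 (chr3:95871481-95871505, plus strand): ctctgcggaCCGGAAGcggaagcta
Mrps18a (chr17:46110969-46110993, plus strand): acccctgctCCGGAAGcggaagtgc
Mrps16 (chr14:20393451-20393475, plus strand): cacgcccgcCCGGAAGccccgcgca
Mrps26 (chr2:130563734-130563758, minus strand): gcgcccggcCCGGAAGtggccgcgg
Mrps22 (chr9:98601675-98601699, minus strand): cctctcgagCCGGAAGttgctctat
Mrps18c (chr5:100798594-100798618, minus strand): cttcccgggCCGGAAGtcacgtgac

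In Mrps23 and Mrps21 the match lay 16 to 22 and 19 to 25 bases after the start, inside the transcribed part, and in Mrps18a 26 to 20 bases before it. The match of Mrps18c lay farthest upstream, 156 to 150 bases before the start. The letters did not part the genes by their change between genotypes. The 11 genes with a match had log2 fold changes from −0.32 to 0.53 with a median of 0.27, and the 15 without had changes from −0.31 to 0.53 with a median of 0.18. The 150 bases before the start are shown for the 2 genes that passed the test, Mrps23, whose stretch is 68.7% G and C, and Mrps36, whose stretch is 51.3% G and C and whose window held none of the 3 motifs.
Mrps23 (chr11:88204238-88204387, plus strand): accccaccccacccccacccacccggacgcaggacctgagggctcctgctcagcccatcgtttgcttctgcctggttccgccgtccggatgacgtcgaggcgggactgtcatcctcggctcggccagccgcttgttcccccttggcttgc
Mrps36 (chr13:100744660-100744809, minus strand): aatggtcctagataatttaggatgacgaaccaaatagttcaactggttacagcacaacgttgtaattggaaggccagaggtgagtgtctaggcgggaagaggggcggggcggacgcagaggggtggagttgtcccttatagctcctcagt

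**Figure D1:**
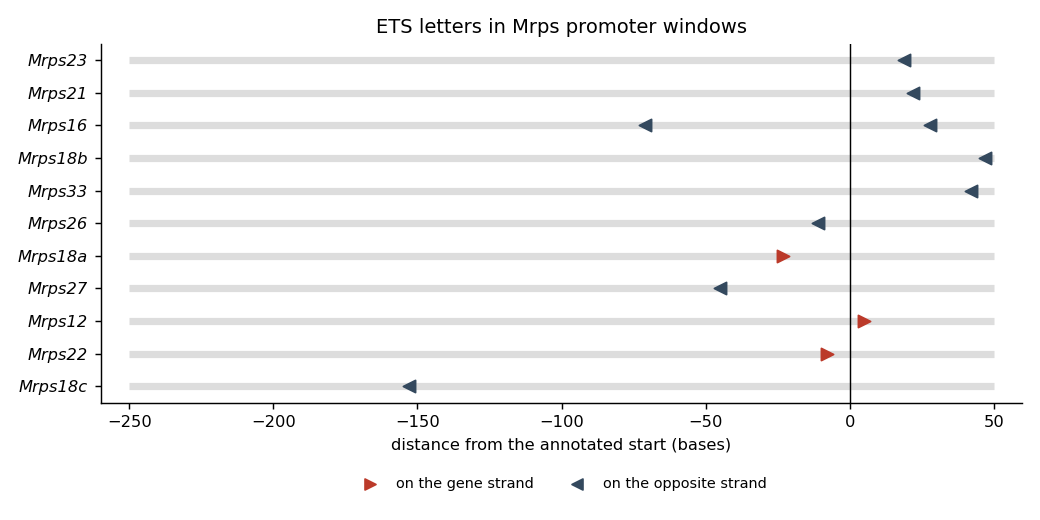
Places of the letters CCGGAAG in the promoter windows of the 11 Mrps genes that hold them, ordered by log2 fold change with the highest at the top. The x axis gives the distance in bases from the annotated start, each grey bar is 1 window, and an arrowhead points right for a match on the gene strand and left for one on the opposite strand. All but Mrps18c and 1 of the 2 matches of Mrps16 lie within 50 bases of the start.

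Between 9321123 and 13385850 reads per library fell on genes, with the fewest in Rpl22+/+ replicate 3. Levels are given in CPM, reads scaled to a common library size with edgeR's TMM factors, and where values of 3 libraries follow each other they stand in the order of replicates 1, 2 and 3. The level of Rpl22 itself was 40.1 ± 4.59 CPM in Rpl22-/- against 538 ± 20.7 CPM in Rpl22+/+ HSCs (SD, n = 3 each), as the labels say. All 12 HSC markers listed passed the filter on low counts, and summed to 3111 to 3438 CPM in the Rpl22-/- libraries and 3187 to 3234 CPM in the Rpl22+/+ libraries. Of these markers Gata2 rose by 0.39 and Fgd5 fell by 0.41 on the log2 scale (edgeR adjusted p = 0.0190 and 0.0308), while Mecom and Hlf, at −0.17 and −0.19, did not pass but were lower in every Rpl22-/- than in any Rpl22+/+ library. Genes of other lineages moved with genotype or with single libraries. The 9 neutrophil genes summed to 108, 225 and 100 CPM in the Rpl22-/- samples against 84.3, 66.9 and 106 CPM in the Rpl22+/+ samples, with 1218 reads of Mpo in Rpl22-/- replicate 2 against 19 to 225 in the other libraries, and 2 of them, Ctsg and Camp, rose in edgeR's test. The 8 megakaryocyte genes summed to 1047 to 1293 CPM in Rpl22-/- and 737 to 966 CPM in Rpl22+/+ libraries. Of the 7 tested, 5 rose by edgeR's quasi-likelihood test at an adjusted p below 0.05, a threshold at which 3.28% of all genes tested rose. The B, T, erythroid and macrophage lists had 2, 2, 3 and 3 genes tested, of which 0 passed, and Igll1, Cd3e and Gp6 were at 0 reads in every library. The part of these genes in the results below was not tested, and fewer cells of a type and less RNA per cell cannot be told apart in bulk RNA.

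All 29 Mrps genes were expressed in HSCs of both genotypes. Per kilobase of transcript, which puts genes of different length on 1 scale, the levels in Rpl22+/+ HSCs ran from 7.22 ± 1.30 CPM per kb (SD, n = 3) for Mrps35 to 46.5 ± 7.09 CPM per kb for Mrps21. Mrps21, Mrps15, Mrps18c and Mrps10 formed the top of the order, at 46.5, 46.4, 42.4 and 42.3 CPM per kb, with overlapping values in the 3 libraries, and stood clear of Mrps23 at 33.5 CPM per kb. Of the 28 pairs of neighbours in this order, 4 had Rpl22+/+ values that did not overlap, so most neighbours did not differ beyond their spread. At the bottom, Mrps16, Mrps30, Mrps26 and Mrps35 measured 12.0, 10.2, 8.57 and 7.22 CPM per kb. The length was that of 1 transcript per gene, the longest principal one where annotated, and the order depends on that choice. For these 4 genes it was 2572, 3319, 4278 and 4162 bases. In CPM, not divided by length, they were at 31.0, 33.8, 36.7 and 30.1, where the median of the 29 genes was 30.4. The transcripts were short, with a median of 1197 bases against 2840 bases over the 13363 tested genes with a known length.

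Of the 29 genes, 22 had a positive log2 fold change (Rpl22-/- over Rpl22+/+) and 7 a negative one, with a median of 0.19, where 48.7% of all 14004 genes tested were positive and the median was −0.0068. In edgeR's quasi-likelihood test, with p-values adjusted after Benjamini and Hochberg across the whole table, 2 rose at an adjusted p below 0.05, Mrps23 and Mrps36, and 0 fell. That is a share of 6.90%, where 3.28% of all genes tested rose and 5.57% passed in either direction, so the share of calls was near that of the whole table. At an unadjusted p below 0.05, 13 were higher and 0 lower, or 44.8% against 11.6% of all genes tested that were higher at that level. In 12 genes all 3 Rpl22-/- libraries were above all 3 Rpl22+/+ libraries, which held for 13.3% of genes tested, and in 2, Mrps18c and Mrps25, all were below, which held for 13.6%. With 3 libraries against 3 the smallest exact two-sided permutation p for any such gene is 0.1. Of all genes tested 780 passed, 459 higher and 321 lower, a split that became 369 and 481 with scaling by library size alone, 476 and 165 once a length trend was taken out, and 411 and 108 once a GC trend was taken out.

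The size of this shift moved with single libraries, in both directions. Rpl22-/- replicate 2 was the highest of the 6 libraries for 16 of the 29 genes (55.2%, against 22.9% of all genes tested), and Rpl22+/+ replicate 3, the shallowest library, was the lowest for 17 (58.6%, against 18.8%). The median deviation of the 29 genes from their Rpl22+/+ mean, on the log2 scale, was 0.18, 0.32 and 0.11 in the Rpl22-/- samples against 0.10, 0.064 and −0.14 in the Rpl22+/+ samples. Rpl22-/- replicate 3 and Rpl22+/+ replicate 1 were thus nearly level. Over all genes tested the same medians lay between −0.0083 and 0.0044. The median log2 fold change of the family was 0.10 without Rpl22-/- replicate 2 and 0.12 without Rpl22+/+ replicate 3, against 0.23 without Rpl22-/- replicate 1, 0.23 without Rpl22-/- replicate 3, 0.26 without Rpl22+/+ replicate 1 and 0.19 without Rpl22+/+ replicate 2. Without both Rpl22-/- replicate 2 and Rpl22+/+ replicate 3 it was 0.039, a value that is lower by the choice of these libraries, which were picked after their high and low values were seen, with 19 of 29 genes positive and 6 higher at an unadjusted p below 0.05 (8.78% of all genes in that fit). The listed neutrophil genes also summed highest in Rpl22-/- replicate 2, through Mpo, Elane and Ctsg, at 101, 20.2 and 13.6 CPM there. The others on that list peaked elsewhere. Ltf, Camp and Ngp were highest in Rpl22-/- replicate 3, S100a8 and S100a9 in Rpl22+/+ replicate 1, and Prtn3 in Rpl22+/+ replicate 3. A tie between these genes and the Mrps levels was not tested.

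**Figure D2:**
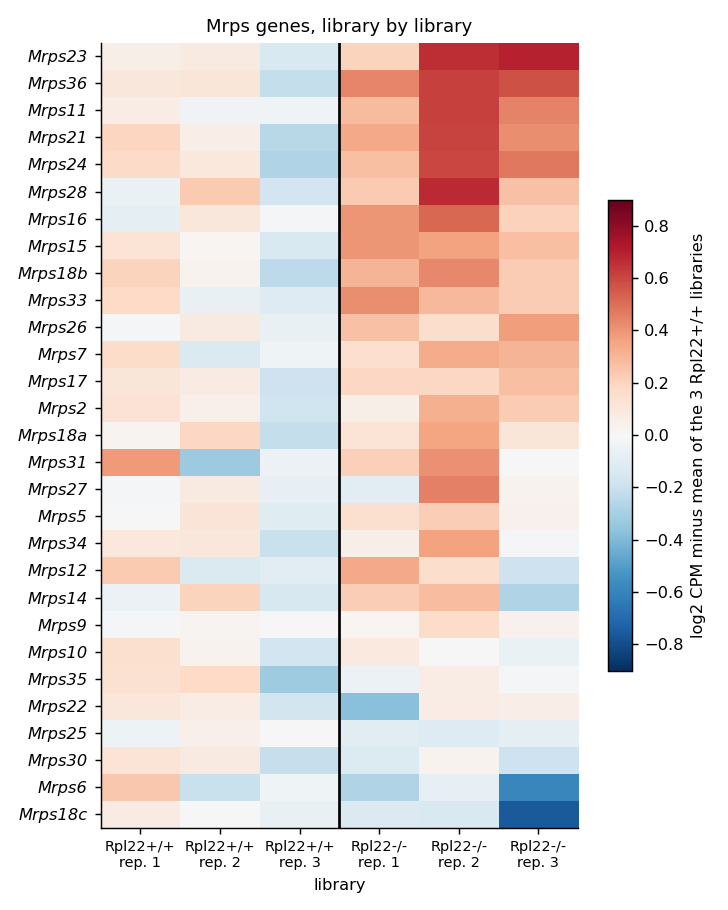
Each of the 29 Mrps genes (rows, by log2 fold change) in each library (columns), as log2 CPM minus the mean of the 3 Rpl22+/+ libraries. Red is above and blue below that mean. The column of Rpl22-/- replicate 2 is the reddest, with a median of 0.32, and that of Rpl22+/+ replicate 3 is mostly blue, with a median of −0.14.

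The number of Mrps genes past the adjusted threshold changed with the libraries left out, as did that of all genes. It was 5, all higher, without Rpl22-/- replicate 1, or 17.2% where 6.78% of all genes rose. It was 0 in each of the other fits without 1 library, where the share of all genes that rose was also lower, at 1.68% and 0.618% without Rpl22-/- replicates 2 and 3 and at 0.953%, 1.24% and 1.03% without Rpl22+/+ replicates 1, 2 and 3. Without both Rpl22-/- replicate 2 and Rpl22+/+ replicate 3 it was 0, with 0.474% of all genes rising. In these fits 6 to 13 Mrps genes were higher at an unadjusted p below 0.05, where 8.78% to 14.4% of all genes were. Lower at that level were 1 Mrps gene without Rpl22-/- replicate 1 and 2 without Rpl22-/- replicate 2. Without both Rpl22-/- replicate 2 and Rpl22+/+ replicate 3 it was also 2. DESeq2 called 6 genes (20.7%, where 4.53% of all genes rose), all higher, adding Mrps11, Mrps15, Mrps16 and Mrps21 to the 2 above, and limma-voom called Mrps23 alone (3.45%, where 3.01% of all genes rose).

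**Figure D3:**
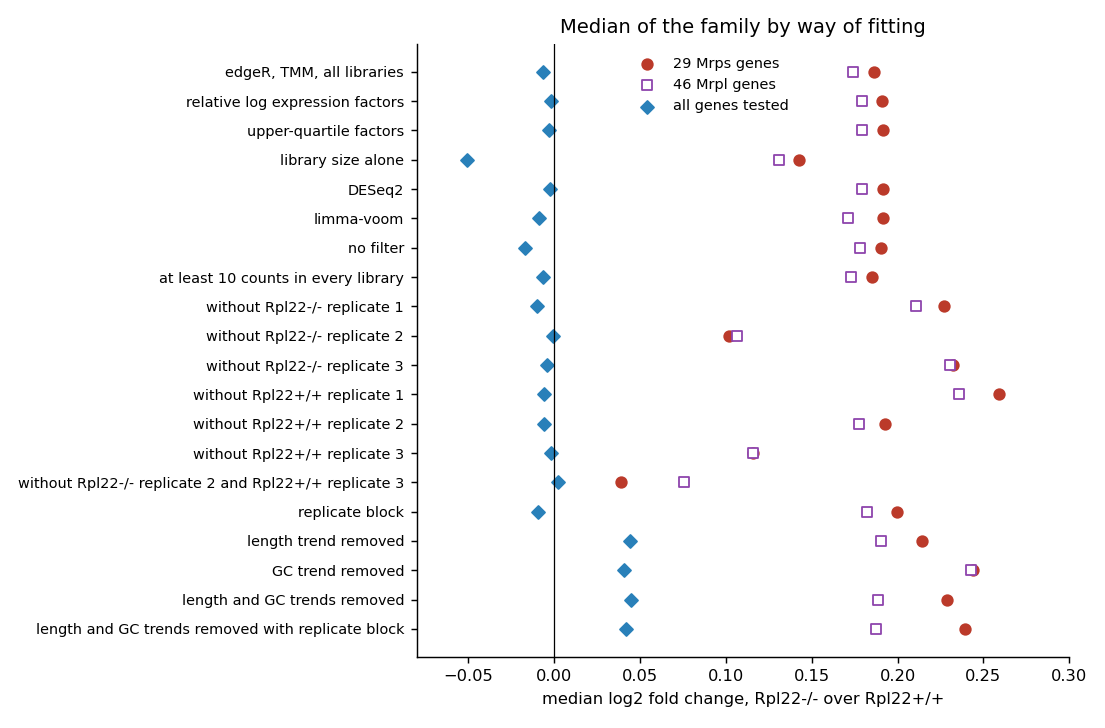
Median log2 fold change (x axis, Rpl22-/- over Rpl22+/+) of the 29 Mrps genes (red circles), 46 Mrpl genes (open squares) and all genes tested (blue diamonds) in the fit reported here, at the top, and 19 others. The Mrps median runs from 0.039, without Rpl22-/- replicate 2 and Rpl22+/+ replicate 3, to 0.26, without Rpl22+/+ replicate 1.

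Among the 16 small-subunit proteins with a bacterial counterpart, 13 genes had a positive log2 fold change and 3 a negative one. The median of the 16 was 0.20. In edgeR's quasi-likelihood test 0 of them passed the adjusted threshold, where 3.28% of all genes tested rose. At an unadjusted p below 0.05 in that test 8 were higher, where 11.6% of all genes tested were. DESeq2 called 4, all higher, where 4.53% of all genes rose. Mrps15, whose bacterial counterpart binds the rRNA early in assembly, had 732, 669 and 689 reads in the Rpl22-/- samples against 614, 546 and 379 in the Rpl22+/+ samples. Its level was 55.0 ± 2.42 against 43.5 ± 3.88 CPM (SD, n = 3 each), and the lowest Rpl22-/- library lay above the highest Rpl22+/+ library (log2 fold change 0.34, standard error 0.0983, edgeR adjusted p = 0.0568). Mrps11, a protein of the platform, where the mRNA leaves, had 249, 294 and 286 reads in the Rpl22-/- samples against 217, 194 and 150 in the Rpl22+/+ samples, again without overlap in CPM (log2 fold change 0.45, standard error 0.135, edgeR adjusted p = 0.0606). Its level in the Rpl22+/+ libraries was even, at 15.9 ± 0.624 CPM (SD, n = 3), and in Rpl22-/- HSCs it was 21.9 ± 2.53 CPM (SD, n = 3).

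Mrps21 and Mrps24 followed the same order of libraries, with Rpl22+/+ replicate 3 the lowest of all 6. Mrps21 had 366, 412 and 397 reads in the Rpl22-/- samples against 335, 292 and 182 in the Rpl22+/+ samples, or 31.0 ± 2.97 against 22.7 ± 3.46 CPM (SD, n = 3 each; log2 fold change 0.44, edgeR adjusted p = 0.0654). Mrps24, which lies where the mRNA enters the subunit, had 314, 370 and 371 reads in the Rpl22-/- samples against 298, 271 and 162 in the Rpl22+/+ samples, or 27.8 ± 3.18 against 20.5 ± 3.21 CPM (SD, n = 3 each; log2 fold change 0.43, edgeR adjusted p = 0.0818). The groups did not overlap in either gene. Mrps24 shares 15.4% of its exon bases with Urgcp on the same strand, so reads there could belong to either gene.

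Mrps28 (log2 fold change 0.39), Mrps16 (0.38), Mrps7 (0.26) and Mrps17 (0.20) were the other genes of this class higher at an unadjusted p below 0.05 in edgeR's test. Mrps7, whose bacterial counterpart organizes the head of the subunit, overlapped between genotypes, at 48.2, 54.7 and 53.7 CPM in Rpl22-/- against 48.8, 39.7 and 42.3 CPM in Rpl22+/+ samples. Mrps2, Mrps5, Mrps12, Mrps14 and Mrps9 had log2 fold changes of 0.20, 0.13, 0.10, 0.08 and 0.08 and overlapping libraries. Mrps12, the protein next to the decoding center, ranged from 18.6 to 26.8 CPM in Rpl22-/- and from 19.3 to 25.0 CPM in Rpl22+/+ HSCs. Mrps10 had the value nearest to 0, at 43.1 ± 2.27 and 43.0 ± 4.71 CPM (SD, n = 3 each; log2 fold change −0.0010).

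The lowest log2 fold changes of the family, −0.32 and −0.31, were those of Mrps18c and Mrps6, whose bacterial counterparts bind each other on the platform of the small subunit. Neither passed the test. Mrps18c (ENSMUSG00000016833, chromosome 5 of GRCm38, forward strand, 100798627 to 100804471) had 317, 295 and 211 reads in the Rpl22-/- samples against 370, 335 and 248 in the Rpl22+/+ samples. In CPM it was 24.7, 24.6 and 16.0 against 28.4, 26.9 and 25.8, so each Rpl22-/- library was below each Rpl22+/+ library and Rpl22-/- replicate 3 was far below the rest (standard error 0.154, edgeR adjusted p = 0.242). Without Rpl22-/- replicate 3 the log2 fold change of Mrps18c was −0.14. Of its exon bases, 23.2% are shared with Gm43511 on the same strand.

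Mrps6 had 145, 156 and 120 reads in the Rpl22-/- samples against 210, 148 and 128 in the Rpl22+/+ samples. The levels were 11.1 ± 1.94 and 13.8 ± 2.16 CPM (SD, n = 3 each) and overlapped (edgeR adjusted p = 0.312). Its log2 fold change was negative here and in all 19 other fits, from −0.46 to −0.18, as was that of Mrps18c, from −0.44 to −0.14, and neither was called in any of them. Of the other 27 genes, 18 were positive in all 20 fits and 9 changed sign.

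**Figure D4:**
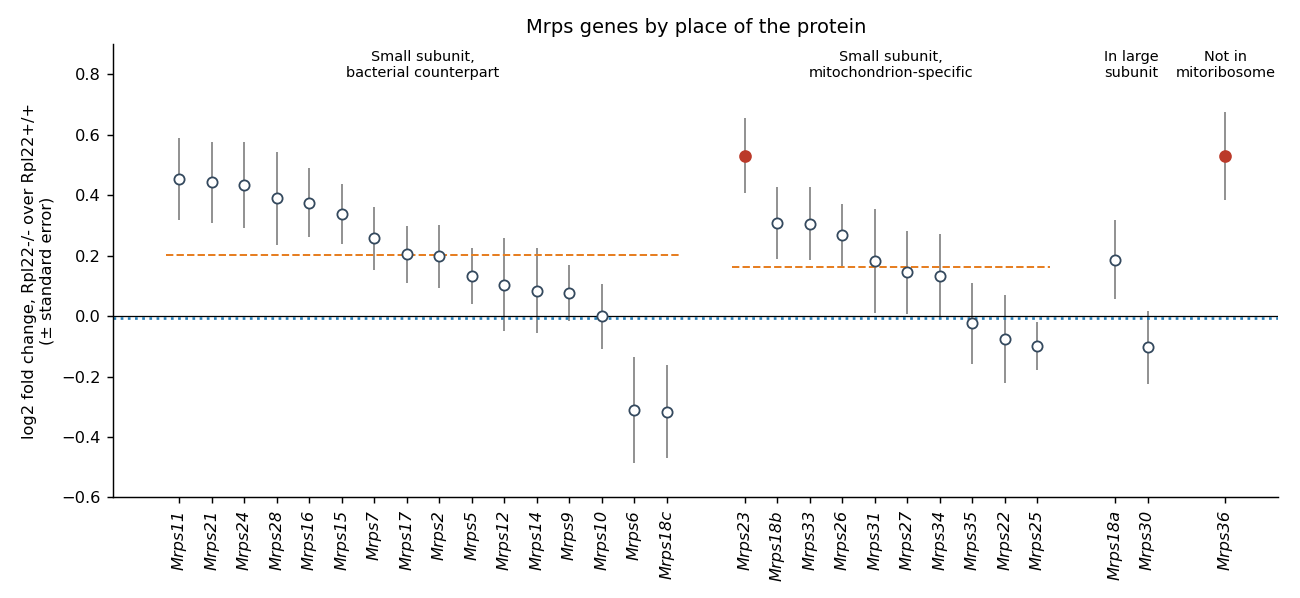
Log2 fold change (y axis, Rpl22-/- over Rpl22+/+) of each Mrps gene with its standard error, grouped by where the protein sits. Filled red points passed an adjusted p of 0.05 and open points did not, orange dashed lines are the class medians (0.20 and 0.16), and the blue dotted line is the median of all genes tested (−0.0068). Mrps23 and Mrps36, both at 0.53, are the 2 filled points.

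Of the 10 mitochondrion-specific small-subunit proteins, 7 genes had a positive and 3 a negative log2 fold change, with a median of 0.16. At the adjusted threshold 1 of the 10 rose, where 3.28% of all genes tested rose. That gene, Mrps23 (ENSMUSG00000023723, chromosome 11 of GRCm38, forward strand, 88204388 to 88211507), had 658, 848 and 949 reads in the Rpl22-/- samples against 603, 588 and 389 reads in the Rpl22+/+ samples. In CPM it was 51.3, 70.6 and 72.1 against 46.3, 47.2 and 40.5, so that Rpl22-/- replicate 1 stood close to the Rpl22+/+ libraries and replicates 2 and 3 well above them. The means were 64.7 ± 11.6 and 44.7 ± 3.65 CPM (SD, n = 3 each), 0.53 apart on the log2 scale (standard error 0.123, edgeR adjusted p = 0.0219). Across the 19 other fits the log2 fold change of Mrps23 ran from 0.40 to 0.68 and its adjusted p from 5.05e-05 to 0.190. Its adjusted p was above 0.05 when any 1 library other than Rpl22-/- replicate 1 was left out, with values from 0.0557 without Rpl22+/+ replicate 2 to 0.119 without Rpl22-/- replicate 3, and was 0.000560 without Rpl22-/- replicate 1.

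Mrps18b and Mrps26 came next in this class by p-value, and in both the genotypes did not overlap. Mrps18b had 567, 579 and 552 reads in the Rpl22-/- samples against 536, 456 and 292 in the Rpl22+/+ samples, or 44.8 ± 3.17 against 36.1 ± 5.42 CPM (SD, n = 3 each; log2 fold change 0.31, edgeR adjusted p = 0.137). It shares 30.5% of its exon bases with the antisense gene Gm16279, and without a stated strand setting reads from the 2 cannot be told apart. Mrps26 had 564, 491 and 627 reads in the Rpl22-/- samples against 472, 482 and 337 in the Rpl22+/+ samples, or 44.2 ± 3.39 against 36.7 ± 1.85 CPM (SD, n = 3 each; log2 fold change 0.27, edgeR adjusted p = 0.138).

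Mrps33, at 0.30, was the other member of this class higher at an unadjusted p below 0.05 in edgeR's test, and Mrps31, Mrps27, Mrps34 and Mrps35 had log2 fold changes of 0.18, 0.14, 0.13 and −0.02. Mrps33 has a near-identical copy, Gm5776, sharing 99.7% of 321 aligned bases, on which at most 4 reads were counted per library. How reads that fit both were counted is not stated, so this low count does not show where they went. Mrps27, an RNA-binding protein of the pentatricopeptide repeat family, was high in Rpl22-/- replicate 2 alone, at 41.6 CPM, with the other 5 libraries between 28.4 and 32.2 CPM. Mrps34 shares 63.4% of its exon bases with Mapk8ip3 on the opposite strand and 37.0% with Nme3 on its own.

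Mrps22, in which mutations cause mitochondrial disease in humans, had 215, 274 and 298 reads in the Rpl22-/- samples against 304, 283 and 186 in the Rpl22+/+ samples, or 20.7 ± 3.44 against 21.8 ± 2.15 CPM (SD, n = 3 each; log2 fold change −0.08, edgeR adjusted p = 0.806). Its lowest library was Rpl22-/- replicate 1, at 16.8 CPM, and the groups overlapped. Mrps25 had 1802, 1675 and 1875 reads in the Rpl22-/- samples against 1900, 1940 and 1449 in the Rpl22+/+ samples. All 3 Rpl22-/- libraries, at 139 to 142 CPM, were below the Rpl22+/+ libraries, at 146 to 156 CPM, a small difference (log2 fold change −0.10, standard error 0.0786, edgeR adjusted p = 0.491) that turned positive, at 0.00034 to 0.036, where trends on gene length or GC content were removed. Exons of Nr2c2 on the opposite strand cover 69.8% of its exon bases, so without a stated strand setting the reads of the 2 genes cannot be told apart there.

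**Figure D5:**
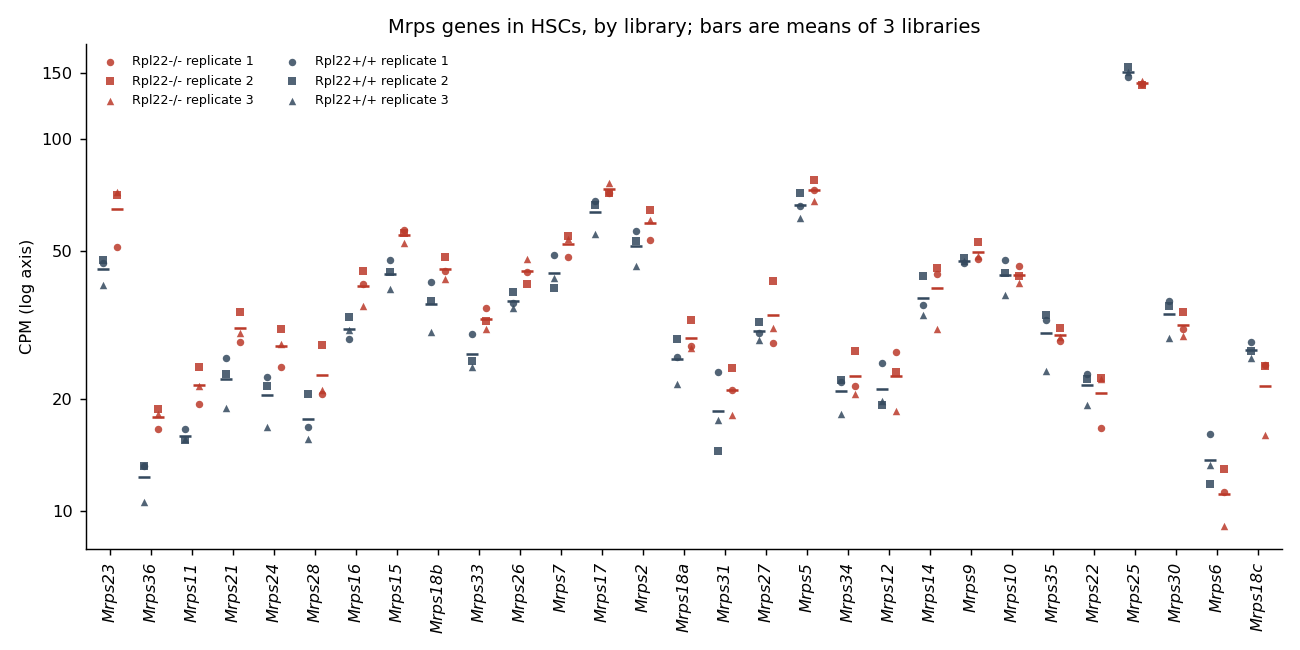
CPM (y axis, log scale) of the 29 Mrps genes in each of the 3 Rpl22-/- (red) and 3 Rpl22+/+ (dark blue) libraries, with marker shape for the replicate and a bar for each mean, ordered by log2 fold change. Levels per gene are not corrected for length. From Mrps23 to Mrps26 the red points lie above the dark blue ones, while the 2 genes at the right end are lower in Rpl22-/- HSCs on average.

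The 3 genes whose proteins lie outside the small subunit did not move as 1 group. Mrps36 (ENSMUSG00000061474, chromosome 13 of GRCm38, reverse strand, 100735955 to 100744659) had 214, 226 and 241 reads in the Rpl22-/- samples against 172, 165 and 102 reads in the Rpl22+/+ samples. In CPM this was 16.7, 18.8 and 18.3 against 13.2, 13.2 and 10.6, so the Rpl22-/- libraries lay close together and above the others. It rose by 0.53 on the log2 scale (standard error 0.146, edgeR adjusted p = 0.0450). The call was lost in 11 of the 19 other fits, among them scaling by library size alone (adjusted p = 0.0599), limma-voom (0.0527), removal of the length trend (0.0790) and each fit without 1 library other than Rpl22-/- replicate 1 (0.0981 to 0.170), while the log2 fold change of Mrps36 stayed between 0.40 and 0.60. Its near-identical copies Mrps36-ps1 and Mrps36-ps2, sharing 99.3% and 99.0% of the aligned bases, had at most 2 reads per library. Of its less alike copies, Gm16149 had 0 reads, and Gm3544 and Gm7258 were not in the count table. How reads that fit both a gene and its copy were counted is not stated, so low counts on copies do not show where such reads went.

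Mrps18a and Mrps30, the large-subunit proteins, overlapped between genotypes. Mrps18a had 356, 392 and 361 reads in the Rpl22-/- samples against 338, 361 and 211 in the Rpl22+/+ samples, or 29.3 ± 2.92 against 25.6 ± 3.52 CPM (SD, n = 3 each; log2 fold change 0.19, edgeR adjusted p = 0.434). Mrps30 had 396, 412 and 388 reads in the Rpl22-/- samples against 477, 443 and 280 in the Rpl22+/+ samples, or 31.5 ± 2.48 against 33.8 ± 4.06 CPM (SD, n = 3 each; log2 fold change −0.10, edgeR adjusted p = 0.667). With these 3 genes left out, the 26 of the small subunit had 20 positive and 6 negative log2 fold changes. Their median was 0.19, and 1, Mrps23, rose at the adjusted threshold, where 3.28% of all genes tested rose.

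The 4 small-subunit proteins without an Mrps symbol did not pass the test, and their log2 fold changes were split 2 and 2, with a median of −0.0042. At an unadjusted p below 0.05, 0 of them passed in edgeR's test, and DESeq2 called 0. Dap3, the GTP-binding protein of the subunit, had 1091, 886 and 976 reads in the Rpl22-/- samples against 1156, 1085 and 772 in the Rpl22+/+ samples (log2 fold change −0.14, edgeR adjusted p = 0.389). Ptcd3, a pentatricopeptide repeat protein, had 1170, 1129 and 1070 reads in the Rpl22-/- samples against 1310, 1278 and 818 in the Rpl22+/+ samples (log2 fold change −0.12, edgeR adjusted p = 0.510). Both had means that were lower in Rpl22-/- HSCs with overlapping libraries, and the value of Ptcd3 turned to 0.0028 to 0.023 where GC content was corrected for.

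Chchd1 had 561, 642 and 571 reads in the Rpl22-/- samples against 537, 585 and 336 in the Rpl22+/+ samples (log2 fold change 0.19, edgeR adjusted p = 0.397). Aurkaip1 had 568, 577 and 568 reads in the Rpl22-/- samples against 560, 517 and 395 in the Rpl22+/+ samples, with 45.1 ± 2.55 against 41.9 ± 1.01 CPM (SD, n = 3 each; log2 fold change 0.11, edgeR adjusted p = 0.553). Its Rpl22-/- libraries were all above its Rpl22+/+ libraries by a small margin, and those of Chchd1 overlapped.

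Of 9 genes listed for the assembly of the small subunit and the modification of its rRNA, 0 passed the adjusted threshold in edgeR's test, and 6 were positive and 3 negative. At an unadjusted p below 0.05, 3 were higher (33.3%, where 11.6% of all genes tested were). These were Rbfa, a maturation factor of the subunit, at 51.2 ± 4.49 against 40.8 ± 2.22 CPM (SD, n = 3 each; log2 fold change 0.32, edgeR adjusted p = 0.0705), and Tfb1m and Mettl15, methyltransferases of its rRNA, at 0.35 (adjusted p = 0.131) and 0.49 (adjusted p = 0.168). In all 3 the Rpl22-/- libraries were above the Rpl22+/+ libraries, which held for 13.3% of all genes tested. The list had a median of 0.19. Of 16 translation factors and related genes tested, 9 were positive and 7 negative with a median of 0.047. Of these 1 passed, in the other direction, where 5.57% of all genes tested passed in either direction. Guf1, a GTPase related to elongation factors, fell by 0.39 on the log2 scale, from 168 ± 2.44 to 127 ± 17.3 CPM (SD, n = 3 each; edgeR adjusted p = 0.0285), with 1849, 1316 and 1695 reads in the Rpl22-/- samples against 2196, 2054 and 1628 in the Rpl22+/+ samples. The call was lost without any 1 library other than Rpl22-/- replicate 1 (adjusted p = 0.0791 to 0.110) and with the length or GC trend removed (0.0581 and 0.146), while the log2 fold change of Guf1 was negative in all 20 fits, from −0.49 to −0.25.

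The genes of the large subunit of the same ribosome, 47 Mrpl symbols of which 46 were tested, were measured in these same libraries and are set beside the Mrps genes here. Their log2 fold changes were positive in 39 and negative in 7, with a median of 0.17, and 6 rose in edgeR's test at an adjusted p below 0.05 (13.0%, where 3.28% of all genes rose), with 0 lower. These were Mrpl42 (log2 fold change 0.70), Mrpl22 (0.61), Mrpl12 (0.60), Mrpl52 (0.49), Mrpl54 (0.45) and Mrpl47 (0.41). At an unadjusted p below 0.05, 18 of 46 were higher (39.1%), against 13 of 29 Mrps genes (44.8%) and 11.6% of all genes tested. Without Rpl22-/- replicate 2 the Mrpl median was 0.11 and without both that library and Rpl22+/+ replicate 3 it was 0.076. The number of Mrpl genes called was 11 without Rpl22-/- replicate 1, 0 without Rpl22-/- replicate 3, 1 without Rpl22+/+ replicate 3 and 2 without any 1 of the other 3 libraries, in the fits whose shares over all genes are given above.

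The summed level of the 30 small-subunit proteins by structure, 26 Mrps genes and the 4 with other names, was 841, 935 and 823 CPM per kb in the Rpl22-/- samples against 816, 790 and 697 CPM per kb in the Rpl22+/+ samples. Divided by the sum of the 47 Mrpl genes it was 0.516, 0.507 and 0.510 in Rpl22-/- and 0.536, 0.531 and 0.519 in Rpl22+/+ HSCs. The ratio was therefore a little lower in each Rpl22-/- library than in any Rpl22+/+ library, at 0.511 ± 0.00453 against 0.529 ± 0.00902 (SD, n = 3 each), while both sums were highest in Rpl22-/- replicate 2 and lowest in Rpl22+/+ replicate 3. The Mrpl sum was taken by symbol, so it left out Mrps18a and Mrps30 and included Mrpl53, at 0 reads in every library. Both sums depend on the 1 transcript length chosen per gene, and no test was made of them.

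Among the 29 genes, the log2 fold change went only weakly with transcript length (Spearman's rho −0.22), GC content (0.29) or Rpl22+/+ level (−0.16), descriptions over 29 genes that share the same 6 libraries. The 13 genes with transcripts of 1100 bases or fewer had log2 fold changes from −0.32 to 0.53 with a median of 0.31, and the 16 longer ones changes from −0.10 to 0.53 with a median of 0.16. With each library's trends on length and GC content removed, the median of the family was 0.23 while that of all genes tested was 0.045, and 1 gene, Mrps23, passed. The 29 genes are spread over 14 chromosomes, with 4 on chromosome 17.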

How the data were processed

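RNA-seq was performed by the authors on HSCs sorted into TriReagent. Reads were checked with FastQC, aligned to mm10 with TopHat2 2.1.1 and counted with HTSeq, and the authors deposited whole-number counts per gene symbol, 1 column per sample, without normalization. The annotation and strand setting of the counting are not given in the sources used here. Totals of reads assigned to no gene, 58.6% to 60.9% of each library, were left out.

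Genes with enough reads (filterByExpr, minimum count 10) were compared between genotypes in edgeR 4.0.16 (R 4.3.3) with TMM scaling and the quasi-likelihood test, adjusted by Benjamini-Hochberg over all genes tested. The study used DESeq2; here DESeq2 1.42.0 and limma-voom (limma 3.58.1) are alternatives, beside other scaling, filters, each library left out, a replicate block, and removal of trends on length and GC content (lowess, span 0.3). Fits were tested on simulated data. Positions and lengths came from GENCODE vM21 on GRCm38, in which 30973 of 34573 symbols matched, copies from blastn 2.17.0 (at least 95% identity over 250 bases), and promoters from RefSeq. Overlap between genotypes was judged in CPM. Further steps used Python 3.11.15 with pandas 2.3.3, numpy 2.4.6 and matplotlib 3.10.9.

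The members and lists were chosen with earlier results of these data known. Every Mrps gene is named, with reads in each library for called genes, the 5 highest and 5 lowest log2 fold changes, the 3 smallest p-values of each class and the 4 proteins with other names. From the assembly, translation factor and Mrpl lists, genes called or else the 3 smallest p-values are named. Of 17 translation factor genes listed, 16 were found, 1 under its older symbol Ict1.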

Additional observations from a re-analysis of the deposited data

How the results depend on the processing

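The median log2 fold change of the 29 Mrps genes was positive as reported (0.19) and in each of 19 other fits. It lay between 0.14 and 0.24 under other scaling, tools, filters and trends, between 0.10 and 0.26 with 1 library left out, and at 0.039 without Rpl22-/- replicate 2 and Rpl22+/+ replicate 3, an alternative chosen after seeing the data. The number of Mrps genes called, 2 as reported, was 6 with DESeq2, 7 without a filter and 1 with library size alone and with limma-voom. It was 1 with the length trend removed, 3 with the GC trend removed and 1 with both trends removed. With 1 library left out it was 0 to 5, and it was 0 without Rpl22-/- replicate 2 and Rpl22+/+ replicate 3. Of all genes, 3.99% rose without a filter and 2.63% with library size alone. With the length trend removed 3.40% rose, with the GC trend removed 2.93%, and with both trends removed 2.60%. Mrpl genes called, 6 as reported, numbered 10 without a filter, 0 to 11 with 1 library left out and 0 without those 2 libraries. Of the 29 other small-subunit and mitochondrial translation genes, 1 was called as reported, 3 without a filter, 0 to 3 with 1 library left out, and 0 without those 2 libraries, with the length or GC trend removed, or with both removed, with or without the block. All genes called, 780 as reported, numbered 1422 without a filter, 519 with the GC trend removed, 476 with both trends removed, 127 to 1720 with 1 library left out and 109 without those 2 libraries. No filter and fewer libraries change how many genes are tested and how many degrees of freedom remain; for the other settings the cause was not tested.

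Replicate numbers were shared by the genotypes in the labels. The correlations of same-numbered deviations from the mean of each genotype were −0.10, 0.055 and 0.045, against −0.17 to 0.13 for other pairs. Deviations from a mean of 3 libraries depend on each other, so these values cannot tell whether samples of equal number were paired. With a replicate block the Mrps median was 0.20, 3 Mrps genes and 904 of all genes were called, and with both trends removed as well the values were 0.24, 2 and 578. Rpl22 lay between −3.83 and −3.65 in all 19 alternatives.

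Some genes changed sign between fits without being called, among them Chchd1, at 0.19 as reported, and Mrps27, at 0.14. Mrps10 (−0.0010) was 0.0037 with relative log expression factors, 0.0044 with upper-quartile factors, 0.0037 with DESeq2, 0.0029 without a filter, 0.0050 with the replicate block, 0.025 with the GC trend removed and −0.081 to 0.074 with 1 library left out. With the length trend removed, Mrps25 was 0.016 and Mrps35 0.064. With the GC trend removed, Mrps22 was 0.014, Mrps25 0.00034, Mrps30 0.013, Mrps35 0.036 and Ptcd3 0.023. With both trends removed, Mrps12 was −0.0023, Mrps25 0.036, Mrps30 0.018, Mrps35 0.062 and Ptcd3 0.0028, and with the replicate block as well Mrps25 was 0.036, Mrps30 0.023, Mrps35 0.079 and Ptcd3 0.0052. With 1 library left out, Mrps12 ranged from −0.017 to 0.24, Mrps14 from −0.016 to 0.24, Mrps22 from −0.15 to 0.060, Mrps27 from −0.035 to 0.26, Mrps34 from 0.0078 to 0.21, Chchd1 from 0.082 to 0.29 and Mrps35 from −0.16 to 0.063. Without Rpl22-/- replicate 2 and Rpl22+/+ replicate 3, Mrps14 was −0.082, Mrps22 −0.22, Mrps27 −0.070, Mrps34 −0.079, Mrps35 −0.19 and Chchd1 −0.017.

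Reads of the Mrps genes numbered 102 to 1940 per gene and library, and with 3 libraries a genotype their standard errors were 0.0786 to 0.175. For a gene that did not pass, these data do not tell a small difference from none.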
